A study of Rattus norvegicus with 6 samples.

Results

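Mid-villus absorptive enterocytes of the rat ileum were looked for here by a rule on detected genes. Passing nuclei had at least 1200 UMIs (unique molecular identifiers, 1 per captured transcript), UMIs of 500 genes or more, and a mitochondrial share of 5% or less. Among them, a nucleus met the rule when it held UMIs of at least 3 of the 8 marker genes Si, Slc5a12, Slc2a2, Ldb3, Btnl5, Ceacam20, Frmd1 and Enpep, and of fewer than 3 of the 8 villus-tip genes Apoa4, Ada, Ly6m, Slc28a2, Gprc5a, Samd9, Cyp3a9 and Rnf24. In all, 9609 of 40970 passing nuclei (23.5%) met it, 3637 in the control group (CON) and 5972 in the group with severe acute pancreatitis (SAP). They are called mid-villus-marked nuclei below, because nuclei of immune and stromal lineages met the rule as well, as given before the results. The members were picked by measured detection of these 16 genes, so levels of these genes are given as a description without a test.

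The study compared the ileum of rats with SAP and of sham-operated rats by single-nucleus RNA sequencing, to ask how pancreatitis alters the intestine. All 6 animals were male Sprague-Dawley wild-type rats of 6 weeks, kept for 7 days to acclimatize, and each rat gave 1 library, with 3 rats in each group. In SAP rats, 3% sodium taurocholate was infused backwards into the pancreatic duct at 0.1 mL per 100 g of body weight and 0.1 mL per min, with the duct clamped for 5 min, while CON rats had their abdomen opened only. Both groups were fasted with free access to water, and the ileum was taken at 24 h. The mid-villus-marked nuclei of the CON replicates 1, 2 and 3 numbered 1137, 456 and 2044, with 6078986, 976935 and 5916937 UMIs. Those of the SAP replicates 1, 2 and 3 numbered 751, 3825 and 1396, with 1387330, 9449156 and 4403261 UMIs. The depth behind a level was thus lowest in CON replicate 2, where 3 UMIs amounted to 3.07 CPM, the field's counts scaled to a common library sum, and highest in SAP replicate 2, where they amounted to 0.317 CPM.

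Enterocytes are the absorptive cells of the intestinal epithelium. They are born in the crypt, take up their function while they move up the villus and are shed at its tip, so that different genes are used at the bottom, in the middle and at the tip. On the villus they digest and carry sugars and peptides at the brush border and package dietary fat into chylomicrons. In the ileum they also recover bile acids and vitamin B12. Of the marker genes, Si codes for sucrase-isomaltase, a brush border enzyme that splits sucrose, and Enpep for glutamyl aminopeptidase, which trims peptides. Slc5a12 codes for a sodium-coupled carrier of lactate and other monocarboxylates, and Slc2a2 for the glucose and fructose carrier GLUT2. Btnl5 is a butyrophilin-like gene, Ceacam20 codes for a microvillus glycoprotein, and Ldb3 for a PDZ and LIM domain protein.

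The 250 bases before the start of 4 marker genes are shown because Enpep was found in nearly every member, Si and Slc5a12 were among the more often found, and Slc2a2 was the one with the least RNA in CON. The sequences are from RefSeq on the build GRCr8, which is not the build named in the submitters' processing notes (mRatBN7.2), so that they serve for sequence only. All 8 marker genes had an entry, and 6 of the 8 tip genes. Capitals mark the letters TTTAT, the core of the site of the intestinal factors CDX1 and CDX2, and GTTAAT, letters of the HNF1 site, on either strand (ATAAA and ATTAAC), and neighboring or overlapping matches run together.
Si, chr2:159884903-159885152, minus strand: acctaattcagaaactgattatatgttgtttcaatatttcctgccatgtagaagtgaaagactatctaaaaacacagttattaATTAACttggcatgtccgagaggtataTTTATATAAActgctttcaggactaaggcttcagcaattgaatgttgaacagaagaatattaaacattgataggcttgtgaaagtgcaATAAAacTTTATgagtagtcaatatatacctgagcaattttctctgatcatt
Enpep, chr2:220526219-220526468, minus strand: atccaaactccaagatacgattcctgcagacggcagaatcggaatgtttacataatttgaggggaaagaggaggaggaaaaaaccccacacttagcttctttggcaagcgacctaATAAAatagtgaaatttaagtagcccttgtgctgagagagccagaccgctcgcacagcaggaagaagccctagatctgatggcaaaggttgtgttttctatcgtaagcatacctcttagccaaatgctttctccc
Slc5a12, chr3:117633637-117633886, plus strand: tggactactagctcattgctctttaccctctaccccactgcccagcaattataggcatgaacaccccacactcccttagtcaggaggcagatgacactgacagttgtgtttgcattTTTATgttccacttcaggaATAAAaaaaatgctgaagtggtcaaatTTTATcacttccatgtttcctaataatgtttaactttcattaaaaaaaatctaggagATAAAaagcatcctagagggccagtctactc
Slc2a2, chr2:113540120-113540369, plus strand: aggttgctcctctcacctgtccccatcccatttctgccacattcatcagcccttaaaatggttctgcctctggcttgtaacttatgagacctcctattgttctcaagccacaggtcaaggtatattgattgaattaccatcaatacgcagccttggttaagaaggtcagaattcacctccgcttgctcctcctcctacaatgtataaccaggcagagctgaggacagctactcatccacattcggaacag
TTTAT was found in the windows of 6 of the 8 marker genes (Si, Enpep, Slc5a12, Ldb3, Ceacam20 and Frmd1) and of 3 of the 6 tip genes with an entry, against 39.3% of the 33469 windows of all genes. In Si it stood 4 times, the nearest at 45 and 52 bases before the start, and in Slc5a12 also 4 times. GTTAAT was found in Si alone among the marker genes, 167 bases before the start, against 6.45% of all windows. The letters CAAAGTCCA of the HNF4 site were in none of the 8 windows and in 0.338% of all. A match is a description of these letters and not a bound site.

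Before the results, several properties of the libraries bear on how the rule can be read. The deposited barcodes reached down to 545 UMIs in CON replicate 2 and to 502 UMIs in SAP replicate 1. The other 4 libraries held none under 1000, so that the files differ in their lower limit. The 6 libraries listed 90461 barcodes in all. Barcode names were numbered within each library, and 20692 names occurred in 2 or more libraries without marking the same droplet. In CON replicate 1 the mean mid-villus-marked nucleus held 5347 UMIs and the median 2733, while medians in the other libraries ranged from 1618 to 2268. Median mitochondrial shares of the members were 0.629%, 0.114% and 0.227% in CON and 1.84%, 1.35% and 0.414% in SAP. Doublets were kept, since Scrublet's own threshold marked between 0 and 5 nuclei per library, and the members among the 5% with the highest scores are left out as an alternative.

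The rule was checked on nuclei that should lack enterocyte RNA, namely nuclei with UMIs of at least 3 marker genes of T cells, B cells, macrophages, smooth muscle, fibroblasts, endothelium or enteric neurons and glia. Of 4151 such nuclei 733 met the rule (17.7%), against 24.1% of the other 36819. By library the immune- or stromal-marked nuclei met it in 17.1%, 4.10% and 22.1% in CON and 22.6%, 57.1% and 13.2% in SAP. Their median depth was 3213.5, 1875 and 2027 UMIs in CON and 1889, 5592 and 2078 UMIs in SAP, at or above that of all passing nuclei. When every nucleus was thinned to 1200 UMIs, the shares were 3.30%, 1.54% and 10.1% in CON and 13.0%, 39.5% and 5.60% in SAP, against 6.57%, 4.06%, 16.1%, 18.7%, 55.1% and 12.3% of the other nuclei. At equal depth the share was thus lower in the immune- or stromal-marked nuclei of all 6 libraries, but it moved with the share of the other nuclei from library to library, and SAP replicate 2 was the highest in both. Goblet-marked nuclei, with at least 6 of 8 goblet genes, met the rule in 19.6% of 6623 nuclei. Droplets with more than 1 nucleus and free RNA were not told apart here.

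A list of 10 enterocyte genes outside the rule gave a second check. Their summed level in mid-villus-marked nuclei was 3273, 2792 and 4026 CPM in CON and 3964, 4355 and 3833 CPM in SAP. In the nuclei that did not meet the rule it was 937, 863 and 2219.7 CPM in CON and 2581, 4997 and 2138 CPM in SAP. The members were above the rest in 5 of the 6 libraries and below it in SAP replicate 2, where 64.1% of all nuclei met the rule. The rest included the villus-tip nuclei, which were 982 of its 2143 nuclei in SAP replicate 2 and held the list at 5541 CPM there. The most abundant of the 10 were Anpep and Myo1a, and Alpi, the alkaline phosphatase of the brush border, was at 0 UMIs in SAP replicate 2. UMIs of at least 2 of 8 epithelial genes were found in between 97.8% and 99.8% of the members of a library, and in between 86.5% and 99.4% of the nuclei that did not meet the rule. The rule did not exclude nuclei of other lineages.

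Mid-villus-marked nuclei made up 12.3%, 7.28% and 24.3% of the passing nuclei in CON and 23.5%, 64.1% and 17.7% in SAP. The 95% Wilson intervals, which cover counting error only, were 11.6% to 13.0%, 6.67% to 7.95% and 23.4% to 25.2% in CON, and 22.1% to 25.1%, 62.9% to 65.3% and 16.9% to 18.5% in SAP. CON averaged 14.6% ± 8.74 (SD, n = 3) and SAP 35.1% ± 25.3 (SD, n = 3). The difference was 20.5 percentage points, and 5.99 without SAP replicate 2. The groups overlapped, since CON replicate 3 lay above SAP replicates 1 and 3 (exact two-sided permutation test, p = 0.3; 3 rats against 3 cannot give less than 0.1). With thinning to 1200 UMIs the means were 8.57% ± 6.07 and 27.9% ± 23.4 (SD, n = 3 each; exact permutation test, p = 0.2). Among nuclei with at least 2 of 8 epithelial genes they were 15.3% ± 9.18 and 36.2% ± 24.4 (SD, n = 3 each; exact permutation test, p = 0.3). Since the share in immune- or stromal-marked nuclei was of the same order and ranked the libraries alike for the highest, these shares are not read as numbers of enterocytes. Of the pair of libraries that listed low barcodes, the CON rat had 7.28% and the SAP rat 23.5%. The remaining CON rats had 12.3% and 24.3%, and the remaining SAP rats 64.1% and 17.7%.

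**Figure D1:**
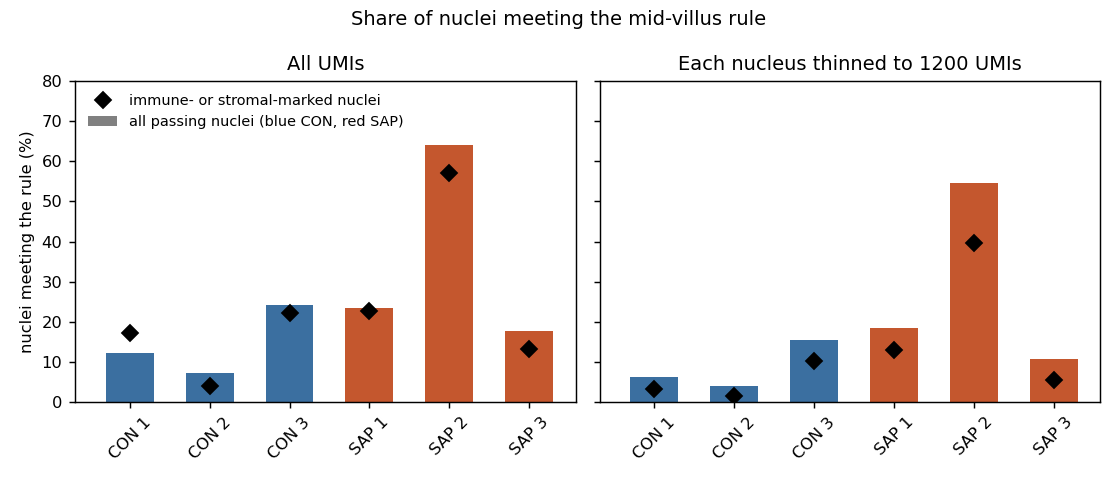
Share of nuclei that met the mid-villus rule in each library (percent, vertical axis), with all UMIs on the left and with each nucleus thinned to 1200 UMIs on the right. Bars are all passing nuclei and diamonds the immune- or stromal-marked nuclei, and SAP 2 stood highest in both, at 64.1% and 57.1% with all UMIs.

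The number of marker genes held by a mid-villus-marked nucleus was most often at the lower limit. Of the 9609 nuclei, 3607 held 3 marker genes, 2713 held 4, 1949 held 5, 1086 held 6, 231 held 7 and 23 all 8. No tip gene was found in 5363 of them, 1 in 2991 and 2 in 1255. Just outside the rule lay 5650 nuclei with 2 marker genes, and 1155 nuclei with 3 or more marker genes were left out for holding 3 or more tip genes. Averaged over the 6 libraries, Si stood at 597 ± 329 CPM (SD, n = 6) in the members and at 204 CPM in the nuclei with 2 marker genes, and Enpep at 1781 ± 383 and 882 CPM.

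Among the marker genes, Enpep was found in between 92.0% and 98.2% of the members of a library, and in between 32.4% and 73.0% of the other nuclei. Ldb3 was found in 55.8% to 63.4% of the members, Slc5a12 in 50.7% to 67.8%, Ceacam20 in 43.3% to 66.6%, Btnl5 in 34.0% to 80.03% and Si in 39.9% to 74.5%. Frmd1 was found in 2.80% to 8.71% and Slc2a2 in at most 10.4%, so that these genes rarely decided membership. Si stood at 134, 246 and 694 CPM in CON and at 948, 739.7 and 819 CPM in SAP, the lowest SAP rat above the highest CON rat. Slc2a2 stood at 0.329 CPM in CON replicate 1 (2 UMIs), at 0 UMIs in CON replicate 2, which allows up to 3.07 CPM, at 18.1 CPM in CON replicate 3, and at 71.4, 52.0 and 38.2 CPM in SAP. Si and Slc2a2 were thus both lowest in CON replicates 1 and 2. Enpep stood at 1964, 2319.5 and 1682 CPM in CON and at 1643, 1901 and 1174 CPM in SAP, with overlap, and Slc5a12 at 387, 424 and 609 CPM in CON and 509.6, 433 and 563 CPM in SAP, again with overlap. The other 4 marker genes overlapped as well, so that 2 of the 8 separated the groups, as a description of genes that the rule used.

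**Figure D2:**
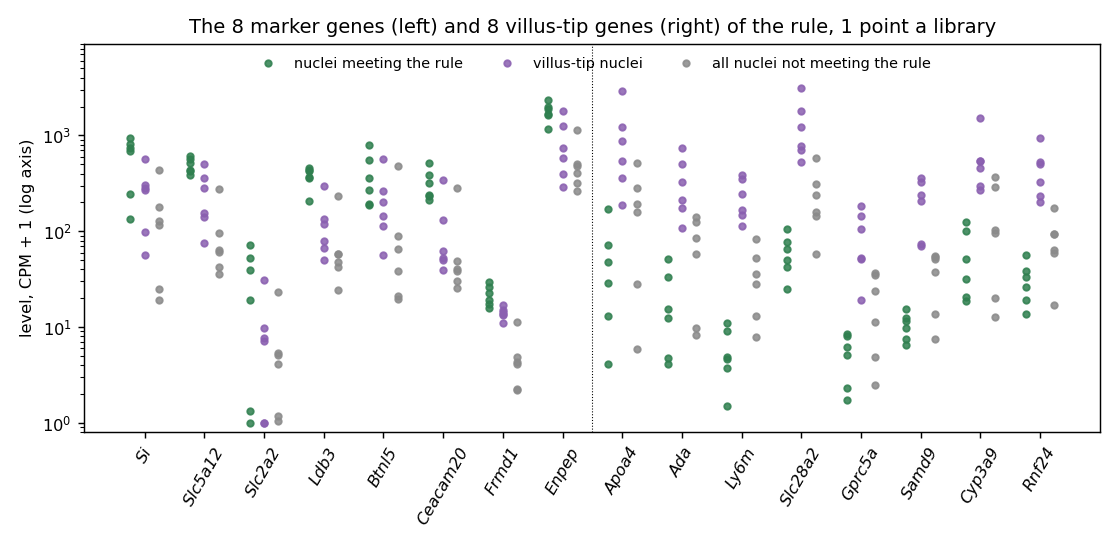
Level of the 16 genes of the rule (CPM plus 1, log axis) in mid-villus-marked nuclei, villus-tip nuclei and all nuclei that did not meet the rule, 1 point per library. The marker genes on the left were higher in mid-villus-marked than in tip nuclei of the same library, apart from Slc5a12 in CON 1 (387 against 502 CPM) and Slc2a2 in CON 2 (0 in both), and the tip genes on the right were highest in tip nuclei of every library.

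Villus-tip nuclei, 2307 in all, were passing nuclei with UMIs of at least 3 of the 8 tip genes. The rule separates them from the members, so that their levels were compared without a test. Of 1146 genes outside the rule with a mean of at least 50 CPM in either kind and 1 direction in all 6 libraries, 546 were higher in the mid-villus-marked nuclei. Slc2a5, the fructose carrier GLUT5, stood at 70.5 ± 36.6 CPM in members and 25.6 ± 9.82 in tip nuclei (SD, n = 6 libraries). Hkdc1, a hexokinase family gene, stood at 204 ± 67.1 against 84.9 ± 43.5 CPM. Slc23a1, a carrier of vitamin C, stood at 122 ± 33.7 against 54.4 ± 38.1 CPM. Further genes of the 10 with the largest ratio were Oaf, Exoc3l4, Igsf9, RGD1561777, LOC102547165 and LOC120095329. Higher at the tip were Isg15, an interferon-induced ubiquitin-like gene, at 110.1 ± 107 against 6.88 ± 4.53 CPM, and Prdm1, a transcription repressor of terminal differentiation, at 233 ± 108 against 21.7 ± 8.17 CPM. Cldn4, a claudin of tight junctions, stood at 856 ± 508 against 86.4 ± 53.3 CPM. Plaur, the urokinase receptor, stood at 1334 ± 739.9 against 161 ± 75.6 CPM. Slfn4, Slfn1, Fbxo32, Atf3, LOC108350992 and LOC102554269 made up the rest of these 10. The sum of 23 genes of lipid uptake and chylomicron assembly was also higher at the tip in each library. In tip nuclei it stood at 13324, 4243 and 16278 CPM in CON and 32039, 11108 and 16072 CPM in SAP. In members it stood at 3928, 2651 and 4999 CPM in CON and 10184, 7913 and 5686 CPM in SAP.

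Against all nuclei that did not meet the rule, 943 of 2192 such genes were higher in the mid-villus-marked nuclei. Xpnpep2, a brush border peptidase that acts on proline bonds, stood at 203 ± 44.8 against 69.4 ± 55.5 CPM (SD, n = 6 libraries). Pdzk1, a scaffold of brush border carriers, stood at 141 ± 36.4 against 50.3 ± 39.0 CPM. Tmigd1, a brush border adhesion protein, stood at 964 ± 242 against 346 ± 269.9 CPM. Slc30a10, a manganese carrier, stood at 54.5 ± 18.4 against 18.4 ± 16.1 CPM. Plb1, a brush border phospholipase, stood at 553 ± 568 against 195 ± 207 CPM. Slc2a5 was again among the 10 genes with the largest ratio, at 70.5 against 20.6 ± 9.84 CPM. The 10 genes with the largest ratio thus included several of the brush border, though the spread between libraries was as large as the mean for Plb1.

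The mid-villus-marked nuclei also differed among themselves. They were grouped by the number of marker genes left after thinning each nucleus to 1200 UMIs, from 0 or 1 to 4 or more, and lists of genes outside the rule were summed in each group of nuclei. The 15 detected genes of sugar carriage and fructose and glucose metabolism stood at 613, 1014 and 1028 CPM in CON and at 1046, 2133 and 1076 CPM in SAP where 0 or 1 marker gene was left, and at 869, 843 and 1916 CPM in CON and 2131, 2921 and 2720.0 CPM in SAP where 4 or more were left. The level was higher with 4 or more marker genes in 5 of 6 libraries, all but CON replicate 2. The 8 crypt stem and cycling genes went the other way, from 679, 597 and 708 CPM in CON and 556, 328 and 584 CPM in SAP down to 465, 462 and 245 CPM in CON and 269, 117 and 222 CPM in SAP, lower in all 6 libraries. The 23 lipid and chylomicron genes were higher with 4 or more marker genes than with 0 or 1 in all 6 libraries, from 2918, 2207 and 3612 CPM to 6294, 3283 and 6784 CPM in CON and from 6667, 7493 and 4368 CPM to 8510.4, 8482 and 6980.0 CPM in SAP. The groups between did not always lie in order, since in SAP replicate 1 the lipid genes stood at 12708 CPM with 2 and 10739.8 CPM with 3 marker genes, above the 8510.4 CPM with 4 or more. In the least marked group the nuclei numbered between 51 and 299 per library, and these levels carry no test. Every member held 3 or more marker genes before thinning, so that nuclei left with 0 or 1 had started above 1200 UMIs. Original depth was thus not told apart from marker number in these groups.

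**Figure D3:**
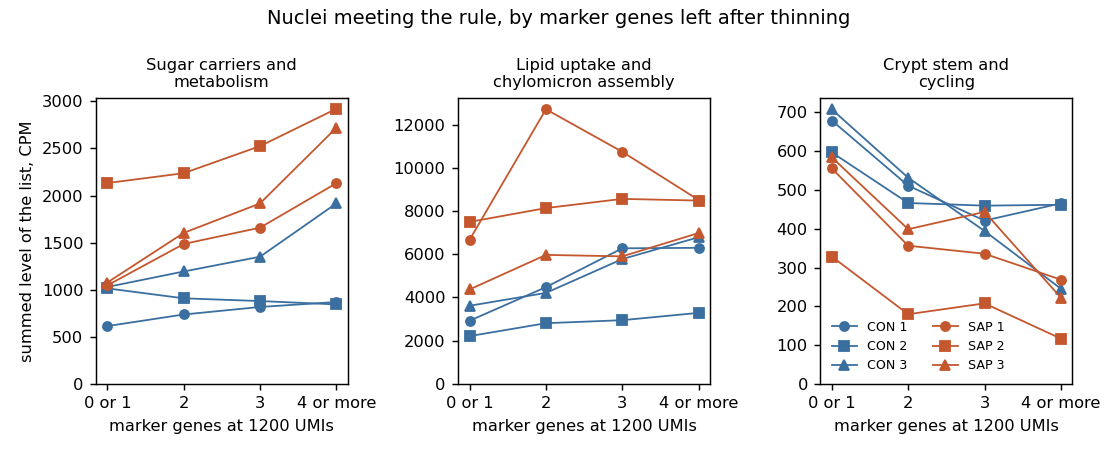
Summed level (CPM) of 3 gene lists in mid-villus-marked nuclei, grouped by the number of marker genes left after thinning to 1200 UMIs, 1 line per library with CON in blue and SAP in red. Sugar genes were higher and crypt genes lower where 4 or more marker genes were left, apart from the sugar genes of CON 2.

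The effect of SAP within the mid-villus-marked nuclei was tested on UMIs summed per library, with edgeR's quasi-likelihood test on TMM-normalized counts and Benjamini-Hochberg adjustment. Levels given from here on are TMM-normalized CPM unless stated otherwise, and fold changes are those of the fit. A gene counted as called where its adjusted p was under 0.05 and its log2 fold change lay 0.5 or more from 0. Of 15394 genes 0 were called (0%), while 1321 (8.58%) had an unadjusted p under 0.05, 597 of them higher (3.88%) and 724 lower (4.7%) in SAP. The groups did not overlap in 2190 genes (14.2%), of which 970 (6.3%) were higher and 1220 (7.93%) lower in SAP, and the median log2 fold change over all genes was 0.01. Libraries that carry the same number in both groups deviated together, and with that number as a block 42 genes were called (0.273%), 16 higher (0.104%) and 26 lower (0.169%). DESeq2 called 124 (0.806%), 53 higher and 71 lower, and 33 of the 42 were among them. The genes named next lie outside the rule and have a mean of at least 50 CPM and no overlap between groups. Of such genes they are the 10 with the smallest p in each direction. That they separate the groups thus follows from the choice. None of them was called by the edgeR fit as described, while the same fit on every gene with at least 1 count called all but St8sia6 and Junb, and DESeq2 called all of them, with adjusted p between 1.12e-29 and 0.0388. edgeR also called Cyp2j3 without CON replicate 3 and Slco2b1 without SAP replicate 3.

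Higher in SAP by this order came first Blmh, which codes for bleomycin hydrolase, a cysteine peptidase. Its level was 137, 185 and 181 CPM in CON and 373, 535 and 477 CPM in SAP, edgeR log2 fold change 1.46, SE 0.21, adjusted p = 0.272, and its lowest SAP rat stood well above its highest CON rat. With the replicate block it was called (edgeR adjusted p = 0.0226). Pnpla2, the lipase that starts the breakdown of stored triglyceride, stood at 47.5, 57.5 and 59.0 CPM in CON and 108, 144 and 112 CPM in SAP, edgeR log2 fold change 1.15, SE 0.20, adjusted p = 0.297 (edgeR adjusted p = 0.0481 with the block). The levels were 38.4, 27.8 and 43.8 CPM in CON and 80.5, 123 and 75.3 CPM in SAP for Slc22a5, the carnitine carrier (edgeR log2 fold change 1.32, SE 0.27, adjusted p = 0.335), and 53.6, 43.2 and 53.2 CPM in CON and 164, 129 and 83.3 CPM in SAP for Acaa2, a thiolase of mitochondrial fatty acid oxidation (edgeR log2 fold change 1.30, SE 0.27, adjusted p = 0.335), and in both all SAP rats lay above all CON rats. Cyp2j3, a P450 epoxygenase whose reads could be split with near-identical copies, stood at 22.0, 22.1 and 52.4 CPM in CON and 114, 116 and 127 CPM in SAP (edgeR log2 fold change 1.84, SE 0.35, adjusted p = 0.301, edgeR adjusted p = 0.0285 with the block). Here the SAP rats lay close together and CON replicate 3 was the highest control.

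The other genes of this order are given next. Errfi1, a feedback inhibitor of the EGF receptor, stood at 97.4, 110.3 and 104 CPM in CON and 218, 276 and 185 CPM in SAP (edgeR log2 fold change 1.12, SE 0.20, adjusted p = 0.297, edgeR adjusted p = 0.0471 with the block). Cldn4, a claudin of tight junctions, stood at 36.4, 50.8 and 50.8 CPM in CON and 97.1, 184 and 98.3 CPM in SAP (edgeR log2 fold change 1.47, SE 0.30, adjusted p = 0.335, edgeR adjusted p = 0.0438 with the block). SAP replicate 2 lay far above the other SAP rats. Il4r, the receptor chain shared by interleukins 4 and 13, stood at 129.7, 135 and 166 CPM in CON and 268, 406 and 251 CPM in SAP (edgeR log2 fold change 1.10, SE 0.23, adjusted p = 0.369). The groups did not overlap for any of these, as the choice of genes required. Junb, a subunit of the AP-1 factor, stood at 64.1, 57.5 and 86.2 CPM in CON and 119, 147 and 173 CPM in SAP (edgeR log2 fold change 1.07, SE 0.23, adjusted p = 0.369). Tp53i13, a p53-inducible gene, stood at 31.0, 26.9 and 29.7 CPM in CON and 89.7, 111 and 63.2 CPM in SAP (edgeR log2 fold change 1.58, SE 0.25, adjusted p = 0.272, edgeR adjusted p = 0.0418 with the block). In the nuclei that did not meet the rule, the mean of all 10 was also higher in SAP, and 9 of them separated the groups, all but Blmh. There Blmh stood at 73.1, 106 and 98.3 CPM of the library total in CON and at 96.1, 332 and 165 CPM in SAP. The genes had been chosen for their separation in members of the same rats. How many of all genes separated the groups in the other nuclei is not given, so that nothing is read from this count.

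St8sia6, which codes for a sialyltransferase, had the lowest log2 fold change of all genes tested. It stood at 413, 503 and 379 CPM in CON, with 524 to 2595 UMIs per rat, and at 10.8, 1.64 and 7.82 CPM in SAP, with 13, 15 and 40 UMIs. All SAP rats lay far below all CON rats, with a fitted level 75.1-fold lower (edgeR log2 fold change -6.23, SE 0.61, adjusted p = 0.115). The call was made by DESeq2 (adjusted p = 1.12e-29), with library totals in place of TMM, at a limit of 1% mitochondrial UMIs and without SAP replicate 2, and not with the block (edgeR adjusted p = 0.0703). In the nuclei that did not meet the rule it stood at 152, 310.1 and 251 CPM of the library total in CON. In SAP it stood there at 5.53, 2.48 and 16.1 CPM on the same scale, so that the difference was not confined to mid-villus-marked nuclei.

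Carriers made up several of the other genes lower in SAP. Slco2b1, a carrier of organic anions, stood at 133, 126 and 108 CPM in CON and 20.8, 25.2 and 40.1 CPM in SAP (edgeR log2 fold change -2.06, SE 0.27, adjusted p = 0.254, edgeR adjusted p = 0.0257 with the block). Slc6a20a, a carrier of proline and other imino acids, stood at 157, 133 and 137 CPM in CON and 63.9, 52.1 and 58.1 CPM in SAP (edgeR log2 fold change -1.30, SE 0.18, adjusted p = 0.261, edgeR adjusted p = 0.0285 with the block). Slc4a4, the sodium bicarbonate cotransporter of the basolateral membrane, stood at 1338, 1249.7 and 918 CPM in CON and 482, 473 and 588 CPM in SAP (edgeR log2 fold change -1.18, SE 0.21, adjusted p = 0.297). All 3 separated the groups, as the choice required. Duox2, the oxidase that makes hydrogen peroxide at the epithelial surface, stood at 111, 161 and 86.8 CPM in CON and 25.7, 37.3 and 45.4 CPM in SAP (edgeR log2 fold change -1.69, SE 0.30, adjusted p = 0.297, edgeR adjusted p = 0.0453 with the block), and its maturation factor Duoxa2 had a log2 fold change of -1.46 (edgeR adjusted p = 0.382).

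Esrrg, a nuclear receptor of mitochondrial energy genes, stood at 90.4, 115 and 117 CPM in CON and 26.6, 29.9 and 39.7 CPM in SAP (edgeR log2 fold change -1.73, SE 0.23, adjusted p = 0.254, edgeR adjusted p = 0.0226 with the block). Ephb2, a receptor tyrosine kinase known from the crypt, stood at 259, 214 and 166 CPM in CON and 69.7, 58.7 and 86.8 CPM in SAP (edgeR log2 fold change -1.57, SE 0.24, adjusted p = 0.272, edgeR adjusted p = 0.0388 with the block). Etfbkmt, a methyltransferase of the electron transfer flavoprotein, stood at 192, 158 and 91.9 CPM in CON and 48.2, 36.3 and 40.9 CPM in SAP (edgeR log2 fold change -1.83, SE 0.29, adjusted p = 0.272, edgeR adjusted p = 0.0285 with the block). In these genes as well the highest SAP rat was below the lowest CON rat, as the choice required. Sema5a, a semaphorin, stood at 119, 158 and 93.4 CPM in CON and 29.9, 21.6 and 44.4 CPM in SAP (edgeR log2 fold change -1.94, SE 0.32, adjusted p = 0.289). Plch2, a phospholipase C, stood at 162, 162 and 95.1 CPM in CON and 36.5, 55.6 and 52.0 CPM in SAP (edgeR log2 fold change -1.51, SE 0.27, adjusted p = 0.297, edgeR adjusted p = 0.0494 with the block). All 10 lower genes were lower in SAP, without overlap, also in the nuclei that did not meet the rule. Those nuclei are of the same rats and no share over all genes is given for them, so that nothing is read from this count either. The summed markers of the crypt were also lower in SAP. The 8 crypt stem and cycling genes summed to 594, 553 and 462 CPM of the library total in the members of CON. In those of SAP they summed to 336, 203 and 403 CPM on the same scale. Olfm4 or Smoc2 was the most abundant, and Ascl2 was at 0 in CON replicate 2. The means were 536 ± 67.2 CPM in CON and 314 ± 102 CPM in SAP (SD, n = 3 each, exact permutation test, p = 0.1, the smallest possible). Of the 8, Pcna did not go with the sum, at 6.09, 5.12 and 5.24 CPM in CON and 11.5, 3.17 and 7.95 CPM in SAP. Ascl2 stood at 3.62, 0 and 1.86 CPM in CON and 5.77, 0.529 and 0.681 CPM in SAP. In the nuclei that did not meet the rule the 8 summed to 1201, 1005 and 939 CPM in CON. There they summed to 757, 280 and 904 CPM in SAP. The part of the crypt genes in these results was not tested.

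**Figure D4:**
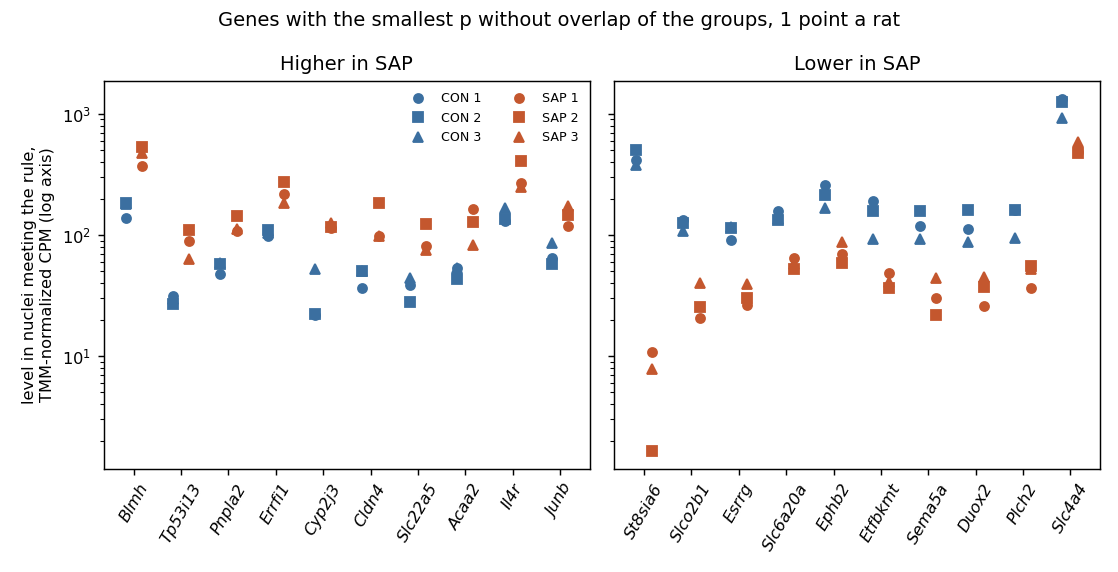
Level (TMM-normalized CPM, log axis) in mid-villus-marked nuclei of the 10 genes per direction with the smallest p among those without overlap of the groups, 1 point per rat. St8sia6 stood at 379 CPM or more in every CON rat and at no more than 10.8 CPM in every SAP rat.

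Of the 42 genes called with the replicate block, 13 are among those above, and 28 of the 42 had a mean of at least 50 CPM. The strongest call was S100a8, a subunit of calprotectin that neutrophils carry. Its level was 4.11, 0 and 1.17 CPM in CON and 130.4, 3.72 and 41.1 CPM in SAP, edgeR log2 fold change 4.67, SE 1.33, adjusted p = 0.454, edgeR adjusted p = 0.00059 with the block, and S100a9, its partner, stood at 5.75, 0.959 and 0.730 CPM in CON and 149, 3.06 and 42.2 CPM in SAP (edgeR adjusted p = 0.00385 with the block). Only SAP replicates 1 and 3 were high, and the groups overlapped. The 4 neutrophil markers S100a8, S100a9, Csf3r and Cxcr2 were summed as CPM of the library total, not on the TMM scale of the levels above. Their sums were 8.55, 2.05 and 3.55 CPM in CON and 244, 6.88 and 99.5 CPM in SAP. S100a9 was the most abundant in SAP replicates 1 and 3, and Cxcr2 was at 0 in 4 of the 6 libraries. In the nuclei that did not meet the rule these markers summed to 1315 CPM of the library total in SAP replicate 1. Their part in the calls was not tested.

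Further calls with the block are given by gene. Rbp2, the cellular retinol-binding protein of enterocytes, stood at 111, 64.3 and 145 CPM in CON and 307, 170.0 and 346 CPM in SAP (edgeR adjusted p = 0.0257). Hmox1, heme oxygenase, stood at 2.67, 1.92 and 5.41 CPM in CON and 20.8, 5.46 and 35.2 CPM in SAP (edgeR adjusted p = 0.0388). Plin2, a coat protein of lipid droplets, stood at 16.4, 17.3 and 25.4 CPM in CON and 46.5, 53.0 and 59.4 CPM in SAP (edgeR adjusted p = 0.0438). In each of the 3 the lowest SAP rat was above the highest CON rat. Lower with the block were Mme, the peptidase neprilysin, at 86.1, 59.5 and 114 CPM in CON and 25.7, 7.32 and 30.1 CPM in SAP (edgeR adjusted p = 0.0257). Nqo1, a quinone reductase, stood at 22.0, 26.9 and 20.2 CPM in CON and 5.81, 4.48 and 6.06 CPM in SAP (edgeR adjusted p = 0.0438). Ubd, an interferon-inducible ubiquitin-like gene, stood at 88.0, 24.9 and 59.0 CPM in CON and 11.6, 10.5 and 11.7 CPM in SAP (edgeR adjusted p = 0.0388). Samhd1, a nuclease of deoxynucleotides, stood at 231, 126 and 88.7 CPM in CON and 38.2, 46.0 and 35.2 CPM in SAP (edgeR adjusted p = 0.0398). Prom1, prominin, stood at 160.1, 154 and 93.8 CPM in CON and 68.9, 50.3 and 49.7 CPM in SAP (edgeR adjusted p = 0.0450). Hmga2, a chromatin protein of growing cells, stood at 171, 226 and 122 CPM in CON and 83.9, 68.2 and 63.0 CPM in SAP (edgeR adjusted p = 0.0481). These were chosen from the 42 for their known roles, after their values were seen. Actg2, a smooth muscle actin, was also called lower (edgeR adjusted p = 0.0398). The 5 smooth muscle markers, of which it is 1, summed to 293, 186 and 479 CPM of the library total in CON. In SAP they summed to 175, 59.1 and 233 CPM on the same scale. Myh11 was the most abundant and none was at 0 in any library. The part of the smooth muscle markers was not tested.

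Gene lists of enterocyte function were then described by their counts and medians, to be read against all genes tested. Of these 51.2% were higher in SAP, with a median of 0.01, 6.3% were higher and 7.93% lower without overlap, and DESeq2 called 0.806%. Of 14 measured genes of sugar carriage and fructose and glucose metabolism 13 were higher in SAP. Their median log2 fold change was 1.01, with 8 without overlap (background 6.3%). None of the 14 was called by the edgeR fit as described or with the block, and DESeq2 called 3 of them higher. Khk, the ketohexokinase that phosphorylates fructose, stood at 153, 192 and 171 CPM in CON and 446, 546 and 180.3 CPM in SAP (edgeR log2 fold change 1.19, SE 0.37, adjusted p = 0.463), and here SAP replicate 3 lay within the CON range. Mlxipl, the carbohydrate-responsive factor ChREBP, stood at 179, 305 and 347 CPM in CON and 456, 831 and 428 CPM in SAP (edgeR log2 fold change 1.05, SE 0.33, adjusted p = 0.477). Slc5a1, the sodium glucose cotransporter SGLT1, stood at 135, 74.8 and 194 CPM in CON and 226, 219 and 243 CPM in SAP (edgeR log2 fold change 0.75, SE 0.31, adjusted p = 0.549). The groups separated in both. G6pc1, the glucose-6-phosphatase, had a log2 fold change of 2.22, Pck1, of gluconeogenesis, one of 1.60 and Tkfc, a fructose pathway kinase, one of 1.43, without overlap. The list median stayed above 0 in all 18 alternatives, between 0.79 and 1.22.

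Of 23 genes of lipid uptake and chylomicron assembly 21 were higher in SAP, with a median of 0.71 and 11 without overlap. The edgeR fit as described called none of them and that with the block Plin2, and DESeq2 called 1 of them higher. Apob, the scaffold protein of chylomicrons, stood at 430.1, 151 and 403 CPM in CON and 789.6, 985 and 463 CPM in SAP (edgeR log2 fold change 1.18, SE 0.42, adjusted p = 0.506). Slc27a4, a fatty acid transport protein, stood at 443, 498 and 414 CPM in CON and 863, 821 and 537 CPM in SAP (edgeR log2 fold change 0.71, SE 0.22, adjusted p = 0.463). Both separated the groups, and CON replicate 2 was far the lowest for Apob. Apoa1, the main protein of high-density lipoprotein, stood at 1336, 202 and 1135 CPM in CON and 6189, 3395 and 708 CPM in SAP (edgeR log2 fold change 1.94, SE 0.88, adjusted p = 0.607). Fabp1, a fatty acid-binding protein, stood at 389.7, 59.5 and 303 CPM in CON and 516, 382 and 624 CPM in SAP (edgeR log2 fold change 1.00, SE 0.57, adjusted p = 0.734), both with overlap. Creb3l3, a factor that drives apolipoprotein genes, had the largest fold change of the list, with 29.8, 2.88 and 90.1 CPM in CON and 359, 177 and 174 CPM in SAP (edgeR log2 fold change 2.43, SE 0.83, adjusted p = 0.505), and Dgat2, which makes triglyceride, one of 1.14. Fabp2 and Scarb1 had fold changes below 0, at -0.58 and -0.52 on the log2 scale.

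Of 19 genes of fatty acid oxidation and ketone synthesis 15 were higher, with a median of 0.53, 9 without overlap among the higher and 2 among the lower. DESeq2 called 2 of them higher and 1 lower. Hadha, of the mitochondrial trifunctional protein, stood at 166, 214 and 159 CPM in CON and 185, 251 and 194 CPM in SAP (edgeR log2 fold change 0.23, SE 0.20, adjusted p = 0.867). Esrra stood at 181, 321 and 246 CPM in CON and 355, 405 and 244 CPM in SAP. Ppara, the fatty acid sensor, stood at 106, 167 and 164 CPM in CON and 232, 278 and 118 CPM in SAP, all with overlap. Cpt1a, the gate of mitochondrial entry, had a log2 fold change of 0.87 and Angptl4, a lipase inhibitor, one of 2.56, without overlap, while Esrrg (-1.73) and Acadm (-0.49) were the lower genes without overlap.

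Brush border hydrolases did not move to 1 side, with 7 of 14 higher, a median of -0.01 (-0.66 to 0.32 under the alternatives) and 1 gene without overlap, Dpp4, a dipeptidyl peptidase (log2 fold change -0.52). Mep1b, a subunit of meprin, stood at 1494, 1338 and 973 CPM in CON and 1689, 1740.2 and 919 CPM in SAP (edgeR log2 fold change 0.19, SE 0.29, adjusted p = 0.943). Anpep, aminopeptidase N, stood at 798, 482 and 649 CPM in CON and 922, 577 and 436 CPM in SAP (edgeR log2 fold change 0.00, SE 0.31, adjusted p = 1). Mgam, maltase-glucoamylase, stood at 624, 557 and 722 CPM in CON and 644, 513 and 494 CPM in SAP (edgeR log2 fold change -0.21, SE 0.19, adjusted p = 0.884). Naaladl1, a further peptidase, stood at 1069, 269 and 723 CPM in CON and 1518, 1742 and 535 CPM in SAP (edgeR log2 fold change 0.88, SE 0.56, adjusted p = 0.784). All 4 overlapped. In nuclei that did not meet the rule Anpep stood at 97.2, 60.7 and 281 CPM of the library total in CON and 287, 511 and 196 CPM in SAP. Of the carriers of peptides and amino acids 7 of 11 were higher (median 0.10, and -0.50 to 0.30 under the alternatives), with Slc15a1, the peptide carrier PEPT1, at 331, 331 and 338 CPM in CON and 432, 598 and 282 CPM in SAP (edgeR log2 fold change 0.39, SE 0.26, adjusted p = 0.797). Slc43a2 stood at 724, 511 and 401 CPM in CON and 422, 449 and 327 CPM in SAP (edgeR log2 fold change -0.45, SE 0.25, adjusted p = 0.715), and Slc7a9 and Slc7a7 had log2 fold changes of 0.10 and 0.12. The 1 gene of this list without overlap, Slc7a8, was lower in SAP (log2 fold change -0.86), and Slc6a19, the main carrier of neutral amino acids, had a log2 fold change of -0.75 with overlap. The microvillus list had 15 of 17 genes higher, with a small median of 0.19, and its most abundant genes Cdhr5, Eps8l2, Tmigd1 and Vil1 had log2 fold changes of -0.00, 0.21, 0.16 and 0.10.

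The ileal functions of bile acid and vitamin B12 uptake gave mixed values. Of 8 bile acid genes 2 were higher (median -0.45), and without CON replicate 1 the median was 0.32. Fabp6, the ileal bile acid-binding protein, stood at 6875, 735 and 1541 CPM in CON and 1554, 1204 and 1479 CPM in SAP (edgeR log2 fold change -1.11, SE 0.73, adjusted p = 0.792). Slc51a, a subunit of the basolateral bile acid exporter, stood at 2495, 439 and 568 CPM in CON and 1280.3, 928 and 595 CPM in SAP (edgeR log2 fold change -0.32, SE 0.66, adjusted p = 0.958). CON replicate 1 was the highest in both, and without it the log2 fold change of Fabp6 was 0.32 and that of Slc51a 0.90. Slc51b, the other subunit, stood at 841, 152 and 136 CPM in CON and 268, 226 and 134 CPM in SAP, with a log2 fold change of -0.86, and of 0.54 without CON replicate 1. Nr1h4, the bile acid receptor FXR, stood at 432, 603 and 547 CPM in CON and 627, 816 and 580.1 CPM in SAP (edgeR log2 fold change 0.36, SE 0.21, adjusted p = 0.755). Of 8 genes of vitamin B12 and endocytic uptake 3 were higher (median -0.15, and -0.23 to 0.79 under the alternatives). Cubn and Amn, the chains of the receptor for vitamin B12 bound to intrinsic factor, stood at 13.4, 5.75 and 37.3 CPM in CON and 131, 56.0 and 53.6 CPM in SAP (edgeR log2 fold change 1.95, SE 0.61, adjusted p = 0.477) and at 110.2, 71.9 and 111 CPM in CON and 205, 223 and 118 CPM in SAP (edgeR log2 fold change 0.88, SE 0.28, adjusted p = 0.477), both without overlap, and DESeq2 called Cubn higher (adjusted p = 0.0475). Tcn2, transcobalamin, stood at 63.1, 31.6 and 56.1 CPM in CON and 103, 93.3 and 61.0 CPM in SAP. Abcc1, an export pump, stood at 75.0, 105 and 69.4 CPM in CON and 75.6, 58.6 and 85.1 CPM in SAP, both with overlap.

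Of 20 enterocyte transcription factors 16 were higher (median 0.22), while Hnf4a and Hnf4g, master factors of the enterocyte, stood at 503, 548 and 472 CPM in CON and 578, 668 and 489 CPM in SAP and at 417, 629 and 642 CPM in CON and 541, 653 and 499 CPM in SAP (log2 fold changes 0.19 and 0.01). Elf3, an epithelial ETS factor, stood at 676, 831 and 674 CPM in CON and 909, 1480.0 and 640.3 CPM in SAP. Tcf7l2, of Wnt signaling, stood at 715, 1137 and 1127 CPM in CON and 696, 814 and 919.7 CPM in SAP. The groups overlapped in all 4. Of 19 tight junction genes 14 were higher (median 0.13), and Cldn4 was the gene called with the block. Magi1, Magi3 and Pard3 had log2 fold changes of -0.09, 0.22 and -0.25, the last without overlap. Of 14 ion carriers 7 were higher (median -0.02, and 0.32 without CON replicate 1). Atp1b1, a subunit of an ion pump, stood at 2053, 698 and 794 CPM in CON and 1413, 918 and 740.4 CPM in SAP, with overlap (log2 fold change -0.21, and 0.46 without CON replicate 1). Slc26a3, a chloride and bicarbonate exchanger, stood at 466, 481 and 351 CPM in CON and 650.1, 767 and 473 CPM in SAP (edgeR log2 fold change 0.54, SE 0.23, adjusted p = 0.574).

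**Figure D5:**
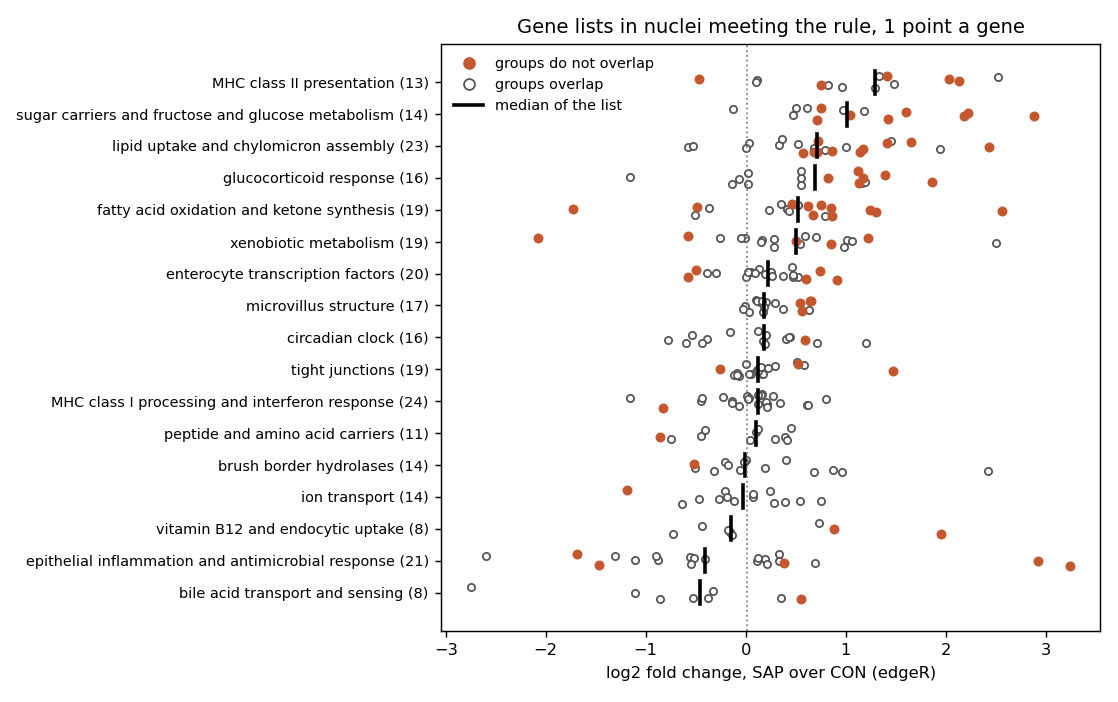
Log2 fold change of each measured gene of 17 lists in mid-villus-marked nuclei (SAP over CON, edgeR), with the number of genes in brackets, filled points where the groups did not overlap and a bar at the list median. The medians of MHC class II (1.30), sugar (1.01) and lipid (0.71) genes lay farthest above that of all genes (0.01, dotted line), and the edgeR fit as described called none of these genes.

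Of 13 measured genes of MHC class II presentation, which enterocytes can use to display antigen, 12 were higher in SAP, with a median of 1.30 and 4 without overlap, and Rfx5, a factor that drives these genes, was lower without overlap (log2 fold change -0.47). Cd74, the invariant chain, stood at 1086, 210.0 and 688 CPM in CON and 2263, 1780.4 and 844 CPM in SAP (edgeR log2 fold change 1.30, SE 0.58, adjusted p = 0.603), with SAP replicate 3 inside the CON range. RT1-Db1, a beta chain, stood at 181, 36.4 and 172 CPM in CON and 789, 697 and 255 CPM in SAP (edgeR log2 fold change 2.13, SE 0.63, adjusted p = 0.463, and DESeq2 adjusted p = 0.0131), without overlap, and RT1-Da at 321, 64.3 and 187 CPM in CON and 731, 425 and 306 CPM in SAP (edgeR log2 fold change 1.33, SE 0.55, adjusted p = 0.558). Ctss, the cathepsin that trims the invariant chain, had a log2 fold change of 0.10. RT1 genes are alike in sequence, so that counting can split their reads. Of 24 genes of class I processing and the interferon response 16 were higher (median 0.12), and 1 of the lower genes was without overlap. B2m stood at 2587, 448 and 558 CPM in CON and 1781, 877 and 628 CPM in SAP (edgeR log2 fold change -0.13, SE 0.71, adjusted p = 0.989), and without CON replicate 1, the highest library, its log2 fold change was 1.13. Tapbp stood at 177, 85.4 and 88.7 CPM in CON and 164, 155 and 89.9 CPM in SAP, and Nlrc5 and Irf1 had log2 fold changes of 0.13 and -0.14. The members also held RNA of B cells, which present antigen. As CPM of the library total, 6 B cell markers summed to 29.6, 51.2 and 224 in CON and to 67.0, 22.8 and 606 in SAP. Ebf1 was the most abundant in all 6 libraries, and Cd79a and Cd79b were at 0 in CON replicate 2. The macrophage markers summed on the same scale to 71.5 ± 7.37 CPM in CON and 53.9 ± 44.2 CPM in SAP (SD, n = 3 each). The part of B cell or macrophage RNA in the class II values was not tested.

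Of 21 genes of epithelial inflammation and antimicrobial response 10 were higher (median -0.40, and 0.14 without CON replicate 1). Lcn2, a siderophore-binding protein, had a log2 fold change of 2.92 and Stat3 one of 0.38, both without overlap, while Duox2 and Duoxa2 were lower. Reg3g and Reg3b, antibacterial lectins whose close sequences can split reads, stood at 65762, 14007 and 5556 CPM in CON and 20292, 9739 and 4499.5 CPM in SAP and at 32288, 8365 and 4316 CPM in CON and 13926, 7224 and 3272 CPM in SAP (log2 fold changes -1.31 and -0.88). CON replicate 1 was the highest in both, and without it the log2 fold changes were 0.24 and 0.36. Pla2g2a, a phospholipase of Paneth cells, stood at 9972, 860.3 and 273 CPM in CON and 1517, 192 and 136 CPM in SAP (edgeR log2 fold change -2.60, SE 1.44, adjusted p = 0.719), and without CON replicate 1 its log2 fold change was 0.12. Dmbt1, a mucosal scavenger protein, stood at 1587, 1276 and 699.5 CPM in CON and 912, 348 and 651 CPM in SAP (edgeR log2 fold change -0.90, SE 0.40, adjusted p = 0.592). Defa24, an alpha-defensin with near-identical relatives, stood at 40042, 1490.4 and 1196 CPM in CON and 19739.9, 1677 and 832 CPM in SAP (edgeR log2 fold change -0.94, SE 1.58, adjusted p = 0.949), and without CON replicate 1 its log2 fold change was 2.47. The summed RNA of 6 Paneth markers was high in the members of CON replicate 1 and SAP replicate 1. As CPM of the library total, not on the TMM scale, the 6 Paneth markers summed to 41903, 2689 and 1991 in CON. In SAP they summed to 25683, 2721 and 1344 CPM on the same scale. Defa24 was the most abundant, and none was at 0 in any library. As CPM of the library total, Defa24 stood at 32052 in the members of CON replicate 1 and at 17137 in those of SAP replicate 1. In the nuclei of these libraries that did not meet the rule it stood at 40833 and 23383 CPM on that scale. Ly6al, a Ly6 family gene, stood at 5359, 928 and 1005 CPM in CON and 2850.3, 1835 and 1947 CPM in SAP (edgeR log2 fold change -0.14, SE 0.66, adjusted p = 0.985). CON replicate 1 was the highest, and without it the log2 fold change was 1.20.

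Of 16 glucocorticoid-responsive genes 13 were higher in SAP (median 0.69), 6 without overlap, with the block Errfi1 was called higher, and DESeq2 called 3 higher. Fkbp5, a co-chaperone of the receptor, stood at 94.5, 56.6 and 134 CPM in CON and 226, 228 and 198 CPM in SAP (edgeR log2 fold change 1.17, SE 0.29, adjusted p = 0.405). Sgk1, a kinase of sodium transport, stood at 29.2, 8.63 and 78.6 CPM in CON and 145, 215 and 87.0 CPM in SAP (edgeR log2 fold change 1.86, SE 0.66, adjusted p = 0.509). Nr3c1, the receptor itself, stood at 181, 245 and 221 CPM in CON and 199, 192 and 195 CPM in SAP (edgeR log2 fold change -0.14, SE 0.18, adjusted p = 0.928), with overlap. Of 19 genes of xenobiotic metabolism 14 were higher (median 0.51, and -0.60 to 0.65 under the alternatives) and Nqo1 was called lower with the block. Cyp3a62, whose reads can be split with other Cyp3a genes, stood at 73.4, 41.2 and 65.9 CPM in CON and 139, 197 and 92.1 CPM in SAP (edgeR log2 fold change 1.23, SE 0.32, adjusted p = 0.451). Nfe2l2, the oxidative stress factor NRF2, stood at 121, 154 and 132 CPM in CON and 215, 186 and 176 CPM in SAP (edgeR log2 fold change 0.51, SE 0.18, adjusted p = 0.507), while the export pumps Abcg2 and Abcb1a had log2 fold changes of -0.01 and 0.28. Of 16 clock genes 10 were higher (median 0.18), with Npas2 at 213, 368 and 437 CPM in CON and 598, 695 and 380.1 CPM in SAP (edgeR log2 fold change 0.72, SE 0.32, adjusted p = 0.589), and Clock, Bmal1 and Per2 at log2 fold changes of 0.19, 0.17 and 0.44, all with overlap.

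Whether SAP acted differently on mid-villus-marked than on villus-tip nuclei was tested by an interaction in edgeR, with the library as a block. Of 13410 genes 0 were called (0%), and 191 (1.42%) had an unadjusted p under 0.05. The largest of the 5 differences toward mid-villus-marked nuclei was that of Apoc2, an apolipoprotein of chylomicrons, at 75.6, 12.9 and 44.6 CPM in the CON members and 185, 113 and 144 CPM in the SAP members, here on the scale of this fit. In tip nuclei it stood at 214, 31.6 and 243 CPM in CON and 377, 123 and 369.9 CPM in SAP, an interaction of 1.08 on the log2 scale (standard error 0.38, unadjusted p = 0.016, adjusted p = 1). Fer1l6, Mrps31, Creb3l3 and Myo5c followed, with interactions of 1.06, 0.70, 0.81 and 0.62. In the other direction stood Ucp2, a mitochondrial uncoupling protein, at -0.75, Txndc5, a protein disulfide isomerase, at -0.78, Txnrd1, thioredoxin reductase, at -0.71, Sec14l1 at -0.69 and Tspan1 at -0.73. Txnrd1 stood at 105, 103 and 110.1 CPM in the CON members and 105, 106 and 107 CPM in the SAP members, while in tip nuclei it stood at 93.5, 89.6 and 134 CPM in CON and 223, 139 and 183 CPM in SAP. For neither Apoc2 nor Txnrd1 did the SAP effect differ between the kinds of nuclei beyond the threshold. Tip nuclei made up 1.06%, 1.23% and 4.83% of passing nuclei for CON, and 8.81%, 16.5% and 5.87% for SAP. These groups did not overlap (exact permutation test, p = 0.1, the smallest possible). Tip nuclei were picked by their tip genes, and no check in immune- or stromal-marked nuclei is given for them. Their shares are therefore not read as numbers of tip cells.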

How the data were processed

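RNA of single ileal nuclei was measured in 6 libraries, 1 for each of 3 CON and 3 SAP rats. The authors deposited raw UMI counts per gene and barcode, made with dnbc4tools, per the methods. Their processing notes name Seurat 4.3.0 and the build mRatBN7.2. The authors' nucleus filter (1200 UMIs, 500 genes, 5% mitochondrial UMIs) was applied here, which left 40970 nuclei; no cell annotation was used.

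Members were found by the rule given above, and their counts were summed per library. Sums were tested by the robust quasi-likelihood F test of edgeR 4.0.16 in R 4.3.3, after filterByExpr and TMM, with Benjamini-Hochberg adjustment, and with DESeq2 1.42.0 as an alternative. Shares were compared by exact two-sided permutation tests with numpy 2.4.6, and the Wilson intervals came from scipy 1.17.1. Nuclei were thinned with a fixed seed, and doublets scored with Scrublet in scanpy 1.11.5. On simulated counts with this design the edgeR test recovered 35.5% of 200 genes changed 2-fold (15030 genes). It recovered 100% of 200 changed 4-fold (15033 genes, with 16 false calls). Every gene had the same dispersion of 0.05 there, and the changed genes were drawn from the more abundant ones. The spread between the real libraries was not matched, so that these shares do not say how many changes were missed here.

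The labels number the replicates 1 to 3 in each group without saying that a number marks a shared day or batch. Deviations of same-numbered libraries from their group means correlated at 0.441, 0.254 and 0.468, and those of other pairs between -0.453 and 0.009, so the blocked fit is given beside results whose call it changed.

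Genes were named by a rule: the 16 rule genes, up to 10 genes per direction as described in the text, the 4 most abundant measured genes of each list, the 10 largest level differences per direction against other nuclei, and 5 interactions per direction. Genes named beyond it (further list members and calls with the block) were chosen after their values were seen. The members, lists and rules were chosen with earlier results of these data known. Reads of near-identical copies (RT1, Reg3, Ly6, Cyp3a, Cyp2j and alpha-defensin genes) could have been split by the counting. Results for some genes are not reported here.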

Additional observations from a re-analysis of the deposited data

How the results depend on the processing

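No gene was called CON against SAP with edgeR, but DESeq2 called 124, the fit with the replicate block 42 and the fit on every gene with at least 1 count 61. Library totals in place of TMM, a limit of 1% mitochondrial UMIs, and leaving out members with 2 or more other-lineage genes, with or without goblet genes counted (the latter chosen after seeing the data), each called 1 gene, St8sia6. With goblet genes counted, 5 nuclei with 7935 UMIs were left in SAP replicate 3 and 1338 genes were tested, so that this call carries no weight. Leaving out 1 library gave 0 to 3 calls: Cyp2j3, LOC120095958 and Slc2a2 without CON replicate 3 (Slc2a2 is a gene of the rule, so that nothing is read from its call), St8sia6 without SAP replicate 2, and Dlgap1, Scd2 and Slco2b1 without SAP replicate 3. The other alternatives, also that of at least 3 of the 7 markers other than Enpep (chosen after seeing the data), called 0. Interactions with the tip numbered 0 to 1 when 1 library was left out and 0 otherwise. The cause of these changes was not tested.

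The share of mid-villus-marked nuclei differed by 20.5 percentage points, by 5.99 to 29.2 when 1 library was left out (5.99 without SAP replicate 2), and by 20.5 with the replicate block; its direction held in all alternatives. Of the list medians, those of sugar, lipid, fatty acid oxidation, MHC class II and clock genes kept their sign in all 18 alternatives and that of glucocorticoid genes in all 17 that gave a value, while those of hydrolases and vitamin B12 genes kept it in 9 of 18, of peptide and amino acid carriers in 12 (-0.50 to 0.30), of ion transport in 15 (-0.57 to 0.32), of the microvillus in 16 (-0.09 to 0.38) and of the other 6 lists in 17, bile acid genes among them, with 0.32 without CON replicate 1. Of the named genes, 102 of 116 kept their sign without CON replicate 1 and 101 of 116 with the thinned rule. Counting depth was lowest in CON replicate 2, with 976935 UMIs.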

Other observations

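Marker lists of further lineages in the mid-villus-marked nuclei were compared between the groups by the exact two-sided permutation test, and are given as values (CPM of the library total, mean ± SD, n = 3 each). The 5 enteroendocrine genes summed to 36.8 ± 9.42 in CON and 65.0 ± 19.4 in SAP (p = 0.1, the smallest possible by exact permutation). The 8 epithelial genes summed to 4889.8 ± 409.97 in CON and 5707 ± 631 in SAP (exact p = 0.1). Goblet genes stood at 5016 ± 1205 and 4583 ± 1738 (exact p = 0.8), tuft genes at 92.5 ± 61.7 and 163 ± 83.1 (exact p = 0.4), and T cell genes at 211 ± 46.4 and 293 ± 151 (exact p = 0.5). Fibroblast, endothelial, and enteric neuron and glia genes stood at 74.0 ± 48.6, 65.2 ± 41.1 and 31.1 ± 22.3 in CON and at 71.5 ± 80.2, 79.96 ± 75.7 and 30.4 ± 17.8 in SAP (exact p = 1, 0.9 and 1). UMIs of 2 or more of the other-lineage genes were found in 85.1% to 99.6% of the members and in 85.7% to 99.6% of the other nuclei of a library.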
